A study of Mus musculus with 24 samples.

Results

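The genes described here are 10 mouse genes that package histones in the growing oocyte, namely the oocyte linker histone H1f8 (also named H1foo) and the histone chaperones Npm2, Hira, Asf1a, Asf1b, Chaf1a, Chaf1b, Daxx, Atrx and Nap1l1. They are listed by name, with no threshold on their values, though earlier results of these data were known when they were chosen, and they are 10 of the 16572 gene names of the expression table. The RNA-seq libraries were from oocytes of class IV, which are the largest of a culture without follicles and measured 60 to 70 µm per the labels, although the study's methods give a lower range for those grown in 20% oxygen. The donors were 7-day-old mice labelled C57BL/6 Barb, for which the methods describe a mixed background with SV129. Their ovaries were digested with enzymes and plated as a cell suspension, so that other ovarian cells entered the culture as well. The IV 5% O2 oocytes were grown for 9 days in 5% oxygen and the IV 20% O2 oocytes for 14 days in 20% oxygen, and the medium was renewed more often in 5% oxygen. No drug was given to either group. Each group had 2 libraries, but the table holds 1 value per gene and group, and how the libraries were combined is not stated in the sources used here. No SD and no test between groups could therefore be given for any gene. Oxygen, culture time, medium renewal, any difference in oocyte diameter and library preparation cannot be told apart in this comparison.

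The values are RPM, reads scaled to the depth of a column, without a correction for gene length. From the value of 1 read, the depth was 132185259 reads in IV 5% O2 against 40875359 in IV 20% O2, a ratio of 3.23. All intervals are exact 95% intervals on reads, cover counting error only, since the reads carry no molecular identifiers, and compare these libraries rather than the oxygen conditions. A difference is log2(RPM + 1) in IV 5% O2 minus that in IV 20% O2, over the 14704 genes whose mean reached 1 RPM, all 10 members among them. A gene counts as apart when this difference reaches 1, that is 2-fold. The median gene of the table lay at 0.26, and differences are also given relative to it. RPM are shares of all RNA, so fewer cells of a type and less RNA per cell cannot be told apart in such bulk samples. The 12 oocyte markers in the table were all present in both columns and summed to 10220 RPM in IV 5% O2 against 14100 RPM in IV 20% O2, led by Gdf9 with 2346 RPM and Zp2 with 3807 RPM respectively. The lower sum in IV 5% O2 came mostly from Zp2, with 1537 and 3807 RPM, and Zp3, with 690 and 1501 RPM. In IV 5% O2, 3 of the 12 were higher, none by 2-fold, among them Nobox with 495.9 against 270.7 RPM. The other 9 were lower, 3 of these by 2-fold or more, beside 9.22% of all genes lower and 18.7% higher by 2-fold.

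Histones that are not on DNA are held by chaperones. These proteins accept new histones in the cytoplasm, carry them into the nucleus and place them on DNA, some during replication and others at any time. ASF1 proteins take H3-H4 dimers and hand them either to CAF-1, which deposits replication-linked H3 behind the fork, or to the HIRA complex, which deposits the replacement histone H3.3. DAXX and its partner ATRX, a chromatin remodeller, place H3.3 at repeats and heterochromatin. Nucleoplasmin (NPM2) and NAP1 proteins bind H2A-H2B dimers. The growing oocyte does not replicate its DNA, so its nucleosomes are renewed largely with H3.3, and it swaps somatic linker histones for its own, H1f8. Maternal H1f8 and Npm2 are stored for the egg, where the sperm genome is repackaged after fertilisation.

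The windows at the start of 9 of the 10 members, all but Npm2, were matched by symbol in the RefSeq promoter set of GRCm38.p6. They hold 250 bases before the start and 50 after it, with the start at base 251. Where RefSeq gives several starts, as for Daxx with 3, the one nearest to the start in the expression table was taken. The RefSeq start lay 287 bases from that of the table for Hira, 204 for Asf1a and 187 for Asf1b, and at most 31 bases away for the other 6. The Hira window thus ends before the start of the gene as it was counted. Shown are those of H1f8, the most abundant member, of Hira and Daxx, the members 2-fold apart, of Chaf1a, and of Asf1a, which had the lowest difference. Capitals mark the core of the hypoxia response element (ACGTG or GCGTG, searched on both strands).
H1f8, chr6:115944681.0-115944980.0, + strand: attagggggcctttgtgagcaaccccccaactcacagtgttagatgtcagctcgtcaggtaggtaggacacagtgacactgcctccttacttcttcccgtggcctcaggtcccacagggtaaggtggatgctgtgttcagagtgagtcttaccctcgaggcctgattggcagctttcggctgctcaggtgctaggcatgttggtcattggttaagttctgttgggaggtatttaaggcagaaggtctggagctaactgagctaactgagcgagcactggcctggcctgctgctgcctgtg
Hira, chr16:18876500.0-18876799.0, + strand: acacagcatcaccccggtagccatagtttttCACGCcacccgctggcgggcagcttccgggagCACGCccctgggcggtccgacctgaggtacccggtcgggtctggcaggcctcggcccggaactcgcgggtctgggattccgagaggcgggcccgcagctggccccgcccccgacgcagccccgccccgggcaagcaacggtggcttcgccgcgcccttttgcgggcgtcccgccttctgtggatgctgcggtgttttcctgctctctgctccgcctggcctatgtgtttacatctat
Daxx, chr17:33909195.0-33909494.0, + strand: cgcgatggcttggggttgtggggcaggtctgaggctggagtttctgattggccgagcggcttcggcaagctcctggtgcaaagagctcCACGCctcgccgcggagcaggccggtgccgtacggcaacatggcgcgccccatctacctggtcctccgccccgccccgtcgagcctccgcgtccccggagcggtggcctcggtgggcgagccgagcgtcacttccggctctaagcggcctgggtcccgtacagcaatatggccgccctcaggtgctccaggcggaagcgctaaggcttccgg
Chaf1a, chr17:56040166.0-56040465.0, + strand: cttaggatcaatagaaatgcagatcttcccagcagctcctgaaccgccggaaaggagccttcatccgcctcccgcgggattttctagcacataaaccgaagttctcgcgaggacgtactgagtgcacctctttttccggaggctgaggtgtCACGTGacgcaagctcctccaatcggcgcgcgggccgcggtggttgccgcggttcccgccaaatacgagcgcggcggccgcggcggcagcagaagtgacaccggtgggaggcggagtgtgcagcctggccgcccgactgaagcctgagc
Asf1a, chr10:53596711.0-53597010.0, + strand: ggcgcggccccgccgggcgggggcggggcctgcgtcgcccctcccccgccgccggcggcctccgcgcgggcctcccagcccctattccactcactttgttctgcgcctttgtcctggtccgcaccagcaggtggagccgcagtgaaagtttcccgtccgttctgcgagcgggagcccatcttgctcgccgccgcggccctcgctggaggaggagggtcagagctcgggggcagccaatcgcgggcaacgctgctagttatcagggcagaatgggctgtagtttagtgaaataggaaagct
Hira, Daxx, Chaf1a, Chaf1b and Nap1l1 held the core, whereas the windows of H1f8, Asf1a, Asf1b and Atrx did not. This made 5 of 9, beside 43.8% of 32851 promoters of the same length. In Chaf1a both matches form 1 palindrome, which is also an E-box (CANNTG). An E-box was found in 7 of 9 windows, beside 72.3% of all promoters. The CCAAT box (CCAAT) stood in 7 of 9 windows, the exceptions being Hira and Chaf1b, beside 37.4% of all promoters. Asf1b and Atrx had 4 copies each and H1f8 had 2. The element TAATTG, which the oocyte factor NOBOX can bind, was found in the windows of Atrx and Nap1l1, beside 8% of all promoters. None of the 9 windows had a TATA box (TATAAA), which 13.6% of promoters hold. The window of H1f8 held 5 CpG, at percentile 43.6 of all promoters, whose median was 7, while Hira had 31, Chaf1a 32, Daxx 33 and Atrx 11. Such matches describe the letters of these windows and do not show binding.

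Of the 10 members, Hira and Daxx were at least 2-fold higher in IV 5% O2 and none was at least 2-fold lower. Among all genes tested, 18.7% were at least 2-fold higher and 9.22% at least 2-fold lower in IV 5% O2, so 2 of 10 is near the share of the whole table. The member differences ranged from -0.26 for Asf1a to 1.31 for Daxx, with a median of 0.72, beside 0.26 for all genes. They were above that of the median gene for 7 of 10 members, of which Npm2 was only 0.01 above it. With a pseudocount of 0.1 RPM, no filter or median-ratio scaling, this held for 6 members. How many members reached 2-fold depended on the scaling. After median-ratio scaling, which sets the columns to the same typical gene, no member was 2-fold apart, where 12.0% of all genes were higher and 13.6% lower. After quantile normalization, which gives both columns 1 distribution, Daxx alone remained, where 12.2% were higher and 12.5% lower. The members' medians were then 0.40 and 0.44. Together the 10 genes made up 3064 RPM in IV 5% O2 against 2069 RPM in IV 20% O2, and H1f8 alone gave 1181 and 704.5 RPM of these.

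**Figure D1:**
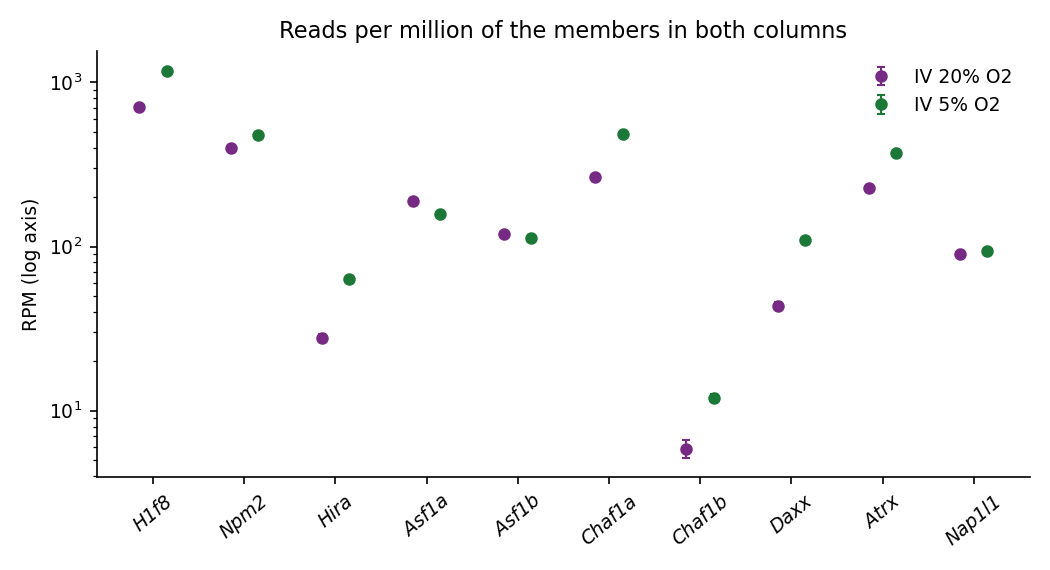
Levels of the 10 members in RPM on a log axis, without a correction for length, with 1 point per column (purple for IV 20% O2, green for IV 5% O2) and exact 95% Poisson intervals as bars, which are narrower than most points. H1f8 was the highest and Chaf1b the lowest member in both columns, and only Asf1a and Asf1b were lower in IV 5% O2 as deposited, with Nap1l1 below 0 too under both other scalings and Npm2 with median-ratio scaling.

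**Figure D2:**
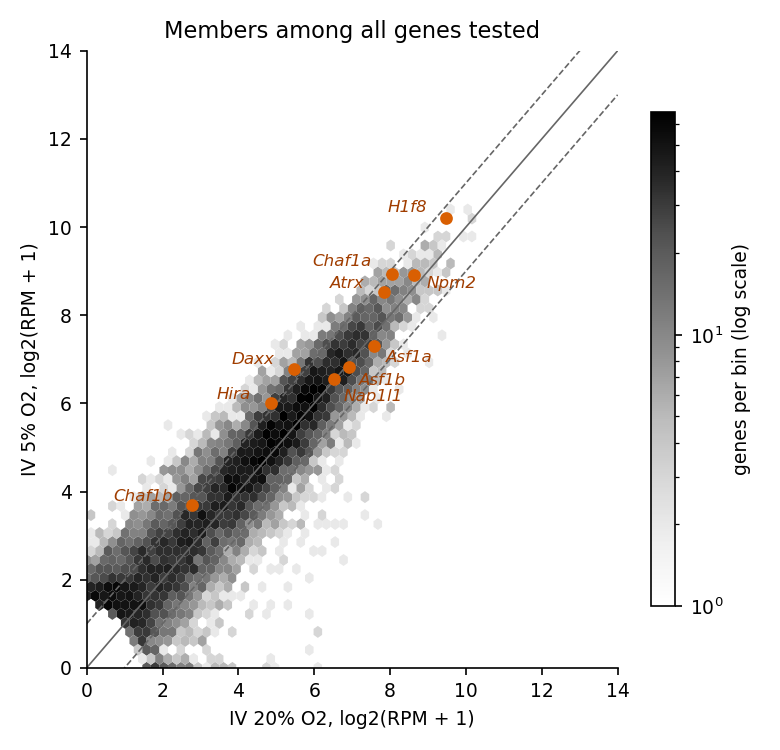
All 14704 genes tested, as hexagons shaded by the number of genes on a log scale, with log2(RPM + 1) of IV 20% O2 on the x axis and of IV 5% O2 on the y axis, and the 10 members in orange. The solid line marks equality and the dashed lines 2-fold, above which only Hira and Daxx lie among the members.

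H1f8, the linker histone that binds the DNA between nucleosomes in oocytes and early embryos, lies on chromosome 6 from 115944938 to 115950236 on the + strand (GRCm38, as all positions here). It had 156155 reads or 1181 RPM (interval 1175 to 1187) in IV 5% O2 and 28797 reads or 704.5 RPM (interval 696.4 to 712.7) in IV 20% O2. The IV 5% O2 column was thus 1.68 times as high (interval 1.656 to 1.698), a difference of 0.74, or 0.49 above the median gene. It stayed positive with both other scalings, at 0.43 with median-ratio scaling and at 0.42 after quantile normalization. H1f8 ranked 34th of all genes in IV 5% O2 and 54th in IV 20% O2. Per kilobase of exon, on which levels of different genes can be set side by side, it had the highest level of the members, with 983.6 and 586.6 RPM per kb in IV 5% O2 and IV 20% O2. The genes closest to it in both columns were Ubb, a ubiquitin gene with 1188 and 693.5 RPM, Cul1, the scaffold of SCF ubiquitin ligases with 1206 and 669.8 RPM, and Oas1c, of the oligoadenylate synthetase family, with 1283 and 774.5 RPM. This likeness rests on the 2 columns alone and is the distance in log2(RPM + 1), which was 0.024 for Ubb, 0.079 for Cul1 and 0.18 for Oas1c.

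H1f8 was set beside the other linker histones because it takes their place on oocyte chromatin. H1f0 to H1f5 and H1f10, which are the linker histones of somatic cells, together had 1081 RPM in IV 5% O2 against 1082 RPM in IV 20% O2. The H1f8 share of the reads of these 8 genes was 52.2% (interval 52.1 to 52.4) in IV 5% O2 and 39.4% (interval 39.1 to 39.8) in IV 20% O2. As shares per kilobase, these were 44.6% and 34.1%. The most abundant somatic gene, H1f1, had 819.2 and 721.9 RPM, which was 1106 and 974.3 RPM per kb, so that per length it exceeded H1f8 in both columns. Its difference was 0.18, but -0.14 under median-ratio scaling and -0.04 after quantile normalization. H1f2 was 2-fold lower in IV 5% O2, with 63.74 and 143.8 RPM. Over the list of linker histones without H1f8, 8 of 10 genes were tested, of which 3 were at least 2-fold higher and 1 lower, beside 18.7% and 9.22% of all genes, with a median of 0.31.

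The 3 linker histones that were 2-fold higher were all of low level. H1f5, a somatic form, had 4.24 RPM from 560 reads in IV 5% O2 and 0.44 RPM from 18 reads in IV 20% O2, 9.62 times as high (interval 6.03 to 16.4). H1f6, the testis form, had 5.76 RPM and 0.73 RPM, from 761 and 30 reads. H1f10 had 6.19 and 2.35 RPM. Its difference of 1.10 fell under 2-fold with median-ratio scaling, at 0.85, and after quantile normalization, at 0.88. None of the 3 genes reached 2-fold with a pseudocount of 5 RPM. Among genes of at least 5 RPM, the median of the linker histone list turned to -0.18. H1f4 shares 42.3% of its exonic bases with other genes on its strand, and its values of 61.75 and 70.21 RPM are uncertain for that reason.

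Hira, the scaffold of the HIRA complex that deposits H3.3 outside replication, lies on chromosome 16 from 18877037 to 18970309 on the + strand. It had 8350 reads or 63.17 RPM (interval 61.8 to 64.5) in IV 5% O2 and 1136 reads or 27.79 RPM (interval 26.2 to 29.5) in IV 20% O2. The ratio of the columns was 2.27 (interval 2.14 to 2.42) and the difference 1.16, which was 0.90 above the median gene. Both other scalings brought it under 2-fold, to 0.84 with median-ratio scaling and 0.98 after quantile normalization. Of Hira's exonic bases, 44.7% are shared on the same strand with the annotated gene Gm28539, on chromosome 16 from 18836584 to 18956247. These are 2778 bases, beside 2982 exonic bases of Gm28539 in all, so most of Gm28539 is Hira exon. Gm28539 had 51.46 and 20.53 RPM, from 6802 and 839 reads. Its difference of 1.29 is therefore not a reading separate from that of Hira. How reads on the shared bases were divided is not stated, so the Hira value is uncertain, and the part of the shared bases in its difference was not tested.

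The partners of HIRA in the complex lay on the other side of the median gene. Ubn1, which together with HIRA contacts H3.3, had 255.5 RPM in IV 5% O2 against 227.2 RPM in IV 20% O2, a difference of 0.17 that became -0.15 with median-ratio scaling and -0.08 after quantile normalization. Cabin1 had 142.8 and 208.2 RPM, a difference of -0.54. Ubn2, the paralog of Ubn1, had 52.21 and 109.3 RPM and was 2-fold lower in IV 5% O2, with a difference of -1.05. So 0 of the 3 partners were 2-fold higher, 1 was 2-fold lower, beside 18.7% and 9.22% of all genes, and their median was -0.54. A list of 3 genes is too short to set against these shares. Ubn2 was no longer past 2-fold with a pseudocount of 5 RPM or per kilobase. Per kilobase of exon, Hira had 10.16 and 4.47 RPM per kb in IV 5% O2 and IV 20% O2, Ubn1 30.89 and 27.47, Cabin1 11.75 and 17.13, and Ubn2 2.44 and 5.10. Hira was therefore below Ubn1 and Cabin1 in both columns, and above Ubn2 in IV 5% O2 only.

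Daxx had the largest difference of the members. It lies on chromosome 17 from 33909414 to 33915590 on the + strand, and its exons overlap no other annotated gene. It had 14474 reads or 109.5 RPM (interval 107.7 to 111.3) in IV 5% O2 and 1781 reads or 43.57 RPM (interval 41.6 to 45.6) in IV 20% O2. The column of IV 5% O2 was 2.51 times as high (interval 2.39 to 2.64), a difference of 1.31, which 89.2% of the genes tested did not reach. It was 1.13 after quantile normalization and 0.995, just short of 2-fold, with median-ratio scaling. Atrx, on chromosome X from 105797615 to 105929403 on the - strand, encodes the remodeller that works with DAXX. It had 369.0 RPM from 48778 reads in IV 5% O2 and 228.7 RPM from 9347 reads in IV 20% O2. The ratio was 1.61 (interval 1.58 to 1.65) and the difference 0.69, which became 0.37 and 0.45 with the other scalings.

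Both members of this pair were thus higher in the IV 5% O2 column, but by unequal factors. Atrx took 77.1% (interval 76.8 to 77.4) of the reads of the pair in IV 5% O2 and 84.0% (interval 83.3 to 84.7) in IV 20% O2. These shares do not depend on the scaling to depth. Atrx has long exons, 21757 bases in all beside 3151 for Daxx, so per kilobase the order was the reverse. Daxx had 34.75 and 13.83 RPM per kb in IV 5% O2 and IV 20% O2, and Atrx 16.96 and 10.51 RPM per kb, with Atrx shares of 32.8% and 43.2%. With the longest coding transcript as length, meaning the transcript with the longest coding sequence, the Atrx shares were 46.7% and 57.7%. The gene with the higher level in IV 20% O2 thus depended on the length used.

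H3.3, the histone that HIRA and DAXX deposit, comes from H3f3a and H3f3b. The genes summed to 417.8 RPM in IV 5% O2 against 457.3 RPM in IV 20% O2. H3f3a had 241.6 and 216.6 RPM, with a difference of 0.16 that turned to -0.16 and -0.09 with median-ratio scaling and quantile normalization, and H3f3b had 176.3 and 240.7 RPM, with a difference of -0.45. Parts of both occur elsewhere in the genome, 16.5% and 9.68% of their 100-base windows, which makes their counts uncertain. Of the 9 replacement histones, 0 were 2-fold higher and 2 were 2-fold lower in IV 5% O2, with a median of 0.16, where 18.7% of all genes were higher and 9.22% lower. These were H2ax, the histone phosphorylated at DNA breaks, with 37.8 and 122.6 RPM, and the H2A.Z gene H2az1, with 49.79 and 129.6 RPM and 28.2% of its windows repeated.

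**Figure D3:**
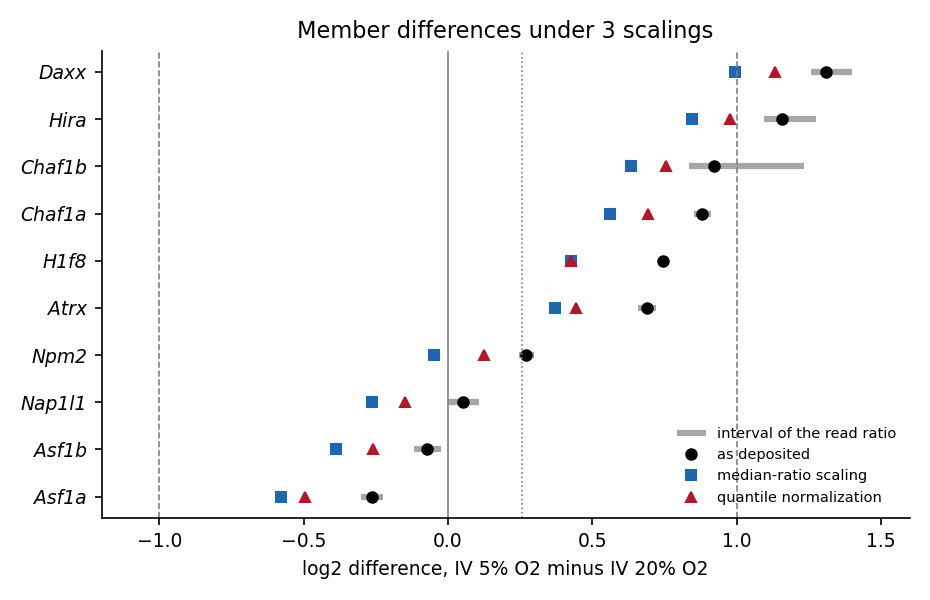
Log2 differences of the 10 members, IV 5% O2 minus IV 20% O2, as deposited (black circles, on log2(RPM + 1)), with median-ratio scaling (blue squares) and after quantile normalization (red triangles), with grey bars for the 95% interval of the log2 ratio of RPM. The solid line marks 0, the dotted line the median gene at 0.26 and the dashed lines 2-fold, which Daxx and Hira pass as deposited and Daxx alone after quantile normalization.

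Asf1a and Asf1b, the paralogs that receive H3-H4 before HIRA or CAF-1, were the only members below 0 as deposited, while Nap1l1 under both other scalings and Npm2 with median-ratio scaling lay on that side too. Asf1a, on chromosome 10 from 53596757 to 53609225 on the + strand, had 157.4 RPM (interval 155.3 to 159.6) from 20809 reads in IV 5% O2 and 188.9 RPM (interval 184.7 to 193.2) from 7722 reads in IV 20% O2. The ratio was 0.833 (interval 0.812 to 0.856), a difference of -0.26, or -0.52 relative to the median gene. Asf1b, on chromosome 8 from 83955507 to 83970197 on the + strand, had 113.0 RPM from 14935 reads and 118.8 RPM from 4854 reads. Its ratio was 0.951 (interval 0.921 to 0.983) and its difference -0.07. With median-ratio scaling, which lowered all member differences, Asf1a and Asf1b were at -0.58 and -0.39, and after quantile normalization at -0.49 and -0.26. Asf1a took 58.2% (interval 57.7 to 58.7) of the reads of the pair in IV 5% O2 and 61.4% (interval 60.6 to 62.3) in IV 20% O2. Per kilobase of merged exons both stood close together, Asf1a with 43.27 and 51.93 and Asf1b with 48.33 and 50.79 RPM per kb, so that their order differed between the columns. With the longest coding transcript as length, Asf1a was above Asf1b in both, with 71.52 and 85.83 beside 63.19 and 66.42 RPM per kb, so the order depended on the length used.

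Of the exonic bases of Asf1a, 48.0% lie opposite to Mcm9, a helicase gene of homologous recombination. Mcm9 had 96.58 RPM in IV 5% O2 against 73.54 RPM in IV 20% O2, a difference of 0.39, on the other side of 0 from Asf1a. The libraries kept the strand of the RNA, but whether the counting used it is not stated, so the reads of the overlapping bases cannot be told apart with certainty.

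CAF-1 deposits new H3-H4 at replication, and its largest subunits are encoded by Chaf1a and Chaf1b. Chaf1a, on chromosome 17 from 56040439 to 56072289 on the + strand, had 485.7 RPM (interval 481.9 to 489.4) from 64199 reads in IV 5% O2 and 263.3 RPM (interval 258.3 to 268.3) from 10761 reads in IV 20% O2. The ratio was 1.85 (interval 1.81 to 1.88) and the difference 0.88, with 0.56 and 0.69 under the other scalings. Chaf1b, on chromosome 16 from 93883901 to 93906115 on the + strand, was the scarcest member, with 12.01 RPM (interval 11.4 to 12.6) from 1587 reads and 5.87 RPM (interval 5.15 to 6.66) from 240 reads. Its ratio of RPM was 2.05 (interval 1.78 to 2.35), but the added 1 RPM brought the difference to 0.92, under 2-fold. With a pseudocount of 0.1 RPM it passed, and the members 2-fold higher were then 3, while the count over all genes went from 2753 to 3326 of 14704.

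The subunits were far from equal in level. Chaf1a gave 97.6% (interval 97.5 to 97.7) of the reads of both genes in IV 5% O2 and 97.8% (interval 97.5 to 98.1) in IV 20% O2, and these intervals overlap. Its share per kilobase was still 95.5% and 96.0%, with 54.85 and 29.73 RPM per kb beside 2.57 and 1.25 for Chaf1b. Chaf1a had place 3 among the members per kilobase in IV 5% O2 and place 5 in IV 20% O2, while Asf1a had places 5 and 3, or 4 and 3 by the longest coding transcript. Of the exonic bases of Chaf1a, 52.5% lie opposite to Ubxn6, a cofactor gene of the p97 ATPase. Ubxn6 had 112.9 and 114.0 RPM, a ratio of 0.991 (interval 0.959 to 1.02), and the part of these bases in the Chaf1a value was not tested.

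Among 14 genes that supply or pass on H3-H4, 3 were at least 2-fold higher and 0 were 2-fold lower in IV 5% O2, with a median of 0.35. The count of higher genes is near the 18.7% of all genes, of which 9.22% were lower. These were Dnajc9, a heat shock co-chaperone of H3-H4, with 155.1 RPM in IV 5% O2 against 58.54 RPM in IV 20% O2, Dek, an H3.3 chaperone, with 98.6 and 39.71 RPM, and Nasp, which keeps a soluble store of H3-H4, with 448.4 and 195.5 RPM. Highest by the mean RPM of both columns, which is not corrected for length, were Rbbp7, a histone-binding partner of the acetylase HAT1, with 869.2 and 655.6 RPM, and Hjurp, the chaperone of the centromeric histone CENP-A, with 423.1 and 366.4 RPM. The Hjurp difference was 0.21, but -0.11 under median-ratio scaling and -0.002 after quantile normalization. Of these 14 genes, Dnajc9 stayed 2-fold higher with median-ratio scaling, and Dnajc9 and Dek after quantile normalization. The median of the list was 0.03 and 0.17 under these scalings.

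Because CAF-1 works at replication forks, 14 genes of S phase and proliferation were described as well. Of these, 2 were at least 2-fold higher in IV 5% O2 and 0 were lower, with a median of 0.64, so that no more of them were called higher than the 18.7% of all genes, of which 9.22% were lower. Mcm3, a subunit of the replicative helicase, had 138.7 and 60.38 RPM, and Top2a, a topoisomerase, had 123.2 and 54.04 RPM. Neither was 2-fold higher with median-ratio scaling or after quantile normalization, at 0.87 and 0.98 for Mcm3 and 0.86 and 0.99 for Top2a. Highest by the mean RPM of both columns, again without length, were Mcm5 of the same helicase, with 273.3 and 137.9 RPM, and the proliferation marker Mki67, with 196.7 and 180.0 RPM, whose difference of 0.13 turned to -0.19 and -0.13 with the other scalings. The part of dividing cells in the values of Chaf1a and Chaf1b was not tested.

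Npm2, the nucleoplasmin of the egg, had place 2 among the members per kilobase in both columns. It lies on chromosome 14 from 70647302 to 70659244 on the - strand and had 479.4 RPM (interval 475.7 to 483.2) from 63373 reads in IV 5% O2 and 397.1 RPM (interval 391.0 to 403.3) from 16233 reads in IV 20% O2. The ratio was 1.21 (interval 1.19 to 1.23) and the difference 0.27, which is 0.01 from the median gene. With median-ratio scaling, which moved the median gene from 0.26 to -0.03, it was -0.05, and after quantile normalization 0.12, so that Npm2 stayed near the median gene. Per kilobase of exon Npm2 had 462.8 and 383.3 RPM per kb. A small part of its exons, 3.76%, is shared on the same strand with Xpo7, a nuclear export gene with 115.9 and 160.6 RPM. Nearest to Npm2 in both columns were Rragc, a Rag GTPase of nutrient sensing with 478.3 and 401.0 RPM, Phf3, with 468.4 and 392.3 RPM, and Ctps, which makes CTP, with 456.0 and 394.9 RPM. Over the 2 columns, their distances from Npm2 were 0.014, 0.038 and 0.073.

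Within the nucleoplasmin family, Npm2 took 54.4% (interval 54.1 to 54.7) of the reads in IV 5% O2 and 54.5% (interval 54.0 to 55.1) in IV 20% O2, and these intervals overlap. Per kilobase of exon the shares were 74.2% and 74.0%. Npm1, the nucleolar member of the family, had 380.1 and 308.6 RPM, a difference of 0.30 that was -0.02 with median-ratio scaling. Npm2 and Npm1 thus differed between the columns by about the same factor, 1.21 and 1.23 with intervals of 1.19 to 1.23 and of 1.21 to 1.26. Of the 100-base windows of Npm1 and Npm3, 9.65% and 11.2% occur elsewhere in the genome, so their counts and the family shares are uncertain to that extent.

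Nap1l1, a chaperone that shuttles H2A-H2B, lies on chromosome 10 from 111473223 to 111498150 on the + strand. It had 93.56 RPM (interval 91.9 to 95.2) from 12367 reads in IV 5% O2 and 90.18 RPM (interval 87.3 to 93.1) from 3686 reads in IV 20% O2. The ratio was 1.04, with an interval from just under 1 to 1.08, the only one of the 10 to include 1. The difference of 0.05 became -0.26 and -0.15 with the other scalings. In Nap1l1, 17.1% of the 100-base windows along the exons occur elsewhere in the genome, and its counts are uncertain to that extent, while no other member has a repeated window of that length. Its paralog Nap1l4 had 385.0 and 237.3 RPM, and Nap1l1 took 19.6% (interval 19.2 to 19.9) of the reads of the pair in IV 5% O2 and 27.5% (interval 26.8 to 28.3) in IV 20% O2.

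Among other H2A-H2B chaperones, 11 of 13 genes were in the table and tested. In IV 5% O2, 3 were at least 2-fold higher and 0 were lower, beside 18.7% and 9.22% of all genes, with a median of 0.40. Vps72, which carries H2A.Z to its remodeller, had 86.04 RPM in IV 5% O2 against 22.29 RPM in IV 20% O2, a difference of 1.90 that was the largest of this list. Ssrp1, a subunit of the FACT complex, had 167.3 and 80.2 RPM, whereas Supt16, its other subunit, had 156.7 and 145.9 RPM, a difference of 0.10 that was -0.22 and -0.12 with the other scalings. Supt16 was named after its values were seen. Ncl, nucleolin, had 205.5 and 98.64 RPM. With median-ratio scaling and after quantile normalization, Vps72 alone stayed 2-fold higher, and the median of the list was 0.09 and 0.24.

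**Figure D4:**
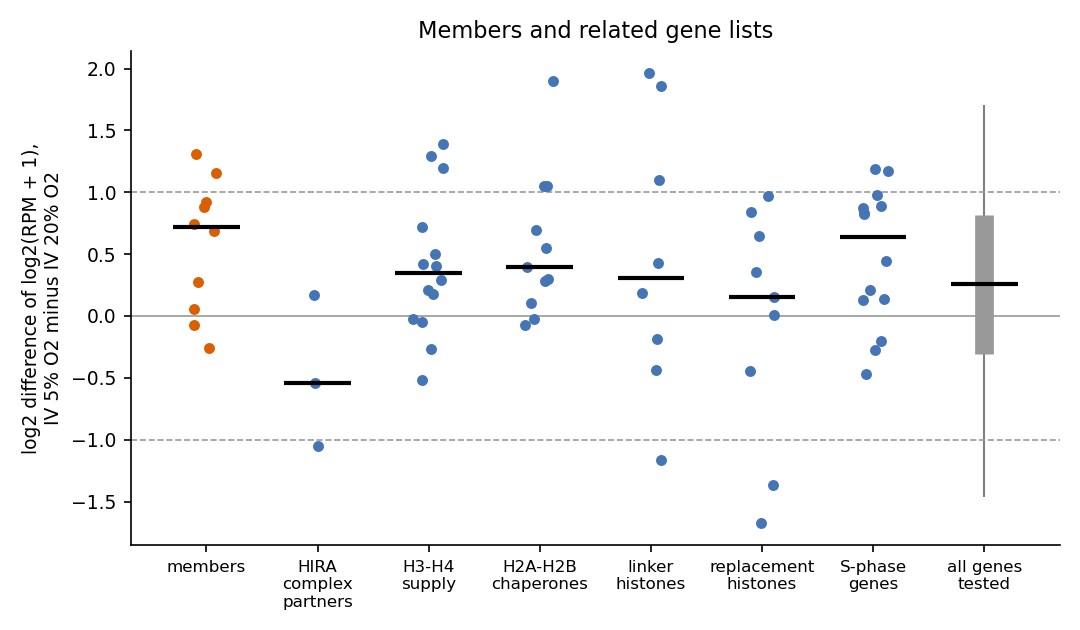
Log2 differences of log2(RPM + 1), IV 5% O2 minus IV 20% O2, for each tested gene of the members (orange) and of 6 related lists (blue), with black bars for medians. At the right, all 14704 genes are shown by their median, their middle range between the 25th and 75th percentiles (thick bar) and their 5th to 95th percentiles (line), and the dashed lines mark 2-fold.

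**Figure D5:**
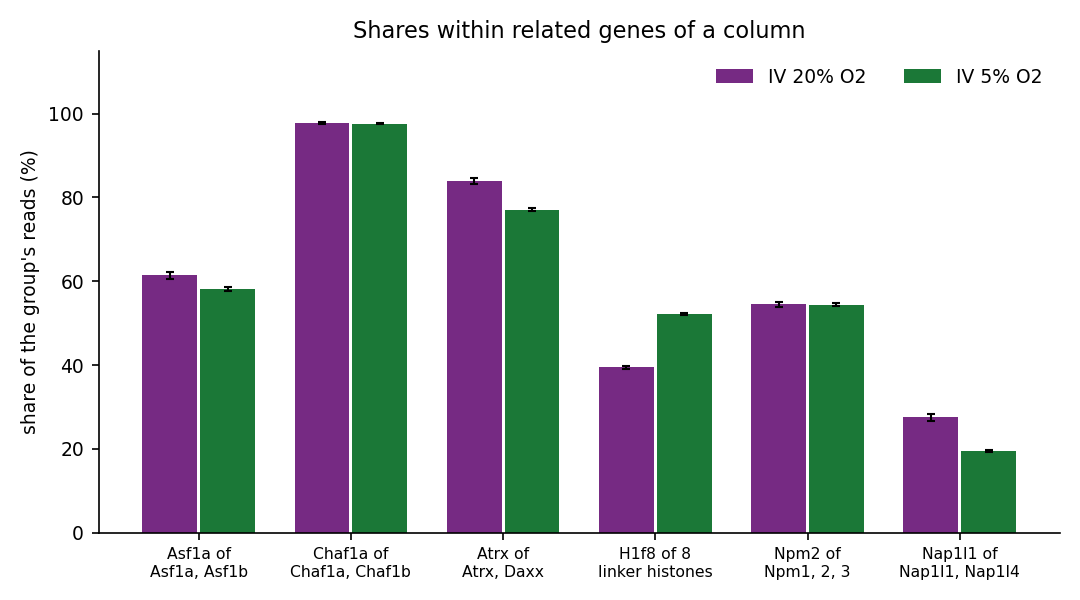
Share of each member, in percent, of the reads of itself and its relatives in IV 20% O2 (purple) and IV 5% O2 (green), with exact 95% binomial intervals as error bars. The H1f8 share of 8 linker histones was higher in IV 5% O2, those of Atrx, Nap1l1 and Asf1a were lower, and the intervals of the Chaf1a and Npm2 shares overlapped.

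Ordered by level per kilobase of exon, the members ran from H1f8 and Npm2 to Hira and Chaf1b, which were at places 9 and 10 in both columns. Between these, Chaf1a, Asf1b, Asf1a, Daxx, Nap1l1 and Atrx followed in IV 5% O2, whereas in IV 20% O2 the order was Asf1a, Asf1b, Chaf1a, Nap1l1, Daxx and Atrx. This middle order depended on the length used: by the longest coding transcript it was Chaf1a, Asf1a, Asf1b, Daxx, Atrx and Nap1l1 in IV 5% O2, and Asf1a, Asf1b, Chaf1a, Nap1l1, Atrx and Daxx in IV 20% O2. Asf1a and Asf1b, with 51.93 (interval 50.8 to 53.1) and 50.79 (interval 49.4 to 52.2) RPM per kb in IV 20% O2, were neighbours whose intervals overlapped on merged exons, while by the longest coding transcript they had 85.83 and 66.42 RPM per kb.

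Markers of other ovarian cells were counted beside these values. Of 14 theca and stroma markers, 10 were in the table, and all 10 were higher in IV 5% O2, with a sum of 45.27 RPM beside 5.48 RPM in IV 20% O2. They ranged from 0.43 RPM up to 16.42 RPM for Cyp11a1, a steroid enzyme, in IV 5% O2, and from 0 up to 2.30 RPM for Fn1, fibronectin, in IV 20% O2, where Col1a2, Vim and Dcn had no read. A count of 0 was taken to allow up to 3 reads, a one-sided limit unlike the intervals, which is 0.0227 RPM in IV 5% O2 against 0.0734 RPM in IV 20% O2. The 5 granulosa markers in the table, of 10, summed to 22.57 and 12.18 RPM, with Kitl highest in IV 5% O2 at 10.15 RPM and Cyp19a1 highest in IV 20% O2 at 5.70 RPM. Fshr had no read in IV 5% O2 and Inha none in IV 20% O2. The 3 macrophage markers in the table, of 5, summed to 17.85 and 21.14 RPM, led by Csf1r with 9.28 and 15.0 RPM, while the other 2 were higher in IV 5% O2, Cd68 with 7.18 and 6.14 RPM and Lyz2 with 1.39 RPM against no read in IV 20% O2. The 3 endothelial markers in the table, of 4, summed to 61.0 and 36.06 RPM, led by Pecam1 with 45.89 and 32.66 RPM, and Kdr had no read in IV 20% O2. The part of such cells in the member values was not tested.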

How the data were processed

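RNA-seq libraries had been made from total RNA depleted of ribosomal RNA with strand-specific paired-end reads, which the authors aligned to mm10 with TopHat and quantified over exons in SeqMonk. The submitters' processing notes name TopHat2 2.0.9 and Trim Galore 0.2.8 and 0.3.5. The authors deposited log2 values, 1 column per group, which are named as RPKM, but on the linear scale 99.982% of each column's values were whole multiples of 1 read within 0.1 read. They were therefore treated as RPM. A gene without reads, listed at 0.9 of a read, was set to 0 RPM. Of 132185259 and 40875359 reads in IV 5% O2 and IV 20% O2, 109629353 and 29754908 were counted on genes. The share counted on genes was thus larger in IV 5% O2. RPM are scaled to the full depth, so this enters all differences as deposited. A further 1 value column, which matches none of the samples, was not used, and the bisulphite libraries are not analysed here.

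Of 16591 rows, 16587 could be given a GENCODE M21 gene. Exonic length, overlaps and 100-base windows occurring elsewhere in GRCm38 (taken every 10 bases) were computed from that annotation. With 1 column per group, the planned comparison was a count of genes at least 2-fold apart, without a test. Ratios have exact Clopper-Pearson intervals, levels exact Poisson intervals and shares exact binomial intervals, at 95%. The members and lists were chosen with earlier results of these data known. Genes were named by rule, namely all members, from each other list the 2 genes of highest mean and every gene 2-fold apart, for H1f8 and Npm2 the 3 nearest genes, and for markers the top gene of each column. Genes overlapping a member on its exons were added. H1f4, Supt16, Npm3, Zp3, Nobox, Cd68 and the markers without reads, Lyz2 among them, were named outside this rule, after their values were seen. The scripts were tested on simulated reads. Alternatives were pseudocounts of 0.1 and 5 RPM, median-ratio scaling, quantile normalization, no filter or one at a mean of 5 RPM, division by exonic length, the longest coding transcript as length, summed rows and, added after the data were seen, genes with under 10% repeated windows. The scripts ran in Python 3.11.15 with scipy 1.17.1, pandas 2.3.3, numpy 2.4.6, matplotlib 3.10.9 and numba 0.67.0.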

Additional observations from a re-analysis of the deposited data

How the results depend on the processing

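No paired analysis was possible because each group has 1 value column for its 2 libraries, and for the same reason no library could be left out. Over all genes, 2753 were 2-fold higher and 1356 lower as deposited. The count of higher genes was 3326 with a pseudocount of 0.1 RPM, 1202 with a pseudocount of 5 RPM, 1758 with median-ratio scaling, 1691 among genes with a mean from 5 RPM, 1799 after quantile normalization and 1561 per kilobase, and that of lower genes was 706 with a pseudocount of 5 RPM, 2003 with median-ratio scaling and 876 per kilobase. The share of higher genes among these calls was 67.0% as deposited, 46.7% with median-ratio scaling and 49.6% after quantile normalization, and the median gene lay at 0.26, -0.03 and 0.06.

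Members 2-fold higher were 2 as deposited, 3 with a pseudocount of 0.1, 0 with median-ratio scaling and 1 after quantile normalization, and their median was 0.3975 and 0.4351 with the latter scalings. With median-ratio scaling, higher genes were 1 of the H3-H4 supply, 1 of the H2A-H2B chaperones and 0 of the S-phase genes, and after quantile normalization 2 of the H3-H4 supply, 1 of the H2A-H2B chaperones and 0 of the S-phase genes. No linker histone was 2-fold higher with a pseudocount of 5 RPM or at a mean of at least 5 RPM. No HIRA partner was 2-fold lower with a pseudocount of 5 RPM or per kilobase. Replacement histones had 1 higher gene with a pseudocount of 0.1 RPM and 1 lower gene without those of 10% or more repeated windows.

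Median-ratio scaling lowers nearly all genes alike, so genes with a small positive difference turn negative by construction, namely Npm2 (-0.048), Nap1l1 (-0.26), Ubn1 (-0.15), Hjurp (-0.11), Npm1 (-0.019), Supt16 (-0.22), H1f1 (-0.14), H3f3a (-0.16), Mki67 (-0.19), Rragc (-0.065), Phf3 (-0.064) and Ctps (-0.11), and the medians of the linker histones (-0.0088) and replacement histones (-0.16). After quantile normalization the direction turned for Nap1l1 (-0.15), Ubn1 (-0.080), Hjurp (-0.0025), H1f1 (-0.037), H3f3a (-0.091), Mki67 (-0.13), Supt16 (-0.12), Gdf9 (0.22) and the replacement histones (-0.091), and at a mean of at least 5 RPM for the linker histones (-0.18), of which 5 of 8 were left. The cause of the turns after quantile normalization was not tested. Among the members, Chaf1b had the fewest reads, 240 in IV 20% O2, and H1f5 and H1f6 rested on 18 and 30 reads there.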
